A study of Mus musculus with 4 samples.

Results

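The contractile genes of slow muscle fibres were measured in gastrocnemius muscle, a calf muscle made mostly of fast fibres. The set was a list of 10 gene names, Myh7, Myl2, Myl3, Tnnt1, Tnni1, Tnnc1, Tpm3, Atp2a2, Myh7b, and Myoz2. It was not chosen by a threshold on any measured value, but it was chosen with earlier results of these data known. All 10 were among the 22252 gene names of the expression tables, and all 10 were among the 14206 genes with counts above 0 in every library. RNA-seq compared male mice at 7 weeks of age in a design of leptin genotype by muscle glucocorticoid receptor (GR) genotype.

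All mice were on C57BL/6J and carried floxed alleles of Nr3c1, the gene of GR, including the controls. Lean GRf/f mice had no Cre and were Lep+/+, and lean GRmKO mice carried Cre on 1 allele (Cre+/-) and were Lep+/+. Obese mice were Lepob/ob, without leptin, either without Cre (ob/ob GRf/f) or with it (ob/ob GRmKO). Cre was driven by Acta1, the skeletal actin gene, so exon 3 of Nr3c1 was removed in myofibers and not in the other cells of the muscle. For each group, 1 library was made from the pooled RNA of 3 animals, so the 4 groups are 4 libraries, no variation between mice could be measured, and no test was possible. Which region of the muscle entered each pool is not given in the sources used here.

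Slow, or type I, fibres contract slowly, resist fatigue, and rely on oxidative metabolism, whereas fast fibres express other isoforms of nearly every sarcomere protein. Calcium released from the sarcoplasmic reticulum binds troponin C, troponin and tropomyosin then free the actin filament, myosin heavy and light chains pull on it, and SERCA pumps return the calcium to the reticulum. In the mouse gastrocnemius, slow fibres lie mainly in the deep, red region of the muscle, and several of the slow genes are also the isoforms of the heart.

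Both genes of the slow myosin heavy chain family in the set host a microRNA in an intron, and these microRNAs are known regulators of fibre type. Myh7, at chr14:54970684-54994626 on the minus strand of GRCm38, held miR-208b in intron 31 of its listed transcript, and Myh7b, at chr2:155611212-155634307 on the plus strand, held miR-499 in intron 19. The mature sequences, from RefSeq on GRCm38.p6, are shown because they share bases 2 to 7 of the seed, which is in capitals (bases 2 to 8). The microRNAs were not measured in these libraries.
mmu-miR-208b-3p (chr14:54975710-54975731, minus strand): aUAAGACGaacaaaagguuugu
mmu-miR-499-5p (chr2:155622893-155622913, plus strand): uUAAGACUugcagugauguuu

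The promoters of the set were read because its members differed together between lean and ob/ob mice. RefSeq start site windows of 300 bases, from 250 bases before the start to 50 after it, were found for 9 of the 10 members, 13 windows in all, and Atp2a2 had no entry. Both Myl2 windows start 8227 and 7762 bases away from the start of the listed Myl2 transcript, and 1 of the Tpm3 windows starts 6872 bases away from that of the listed Tpm3 transcript. Searched on both strands, the muscle CAT element (MCAT, CATTCC), bound by TEAD factors, was in 3 of the 13 windows and in 14.6% of all 32544 windows. A MEF2 site was in 1 member window and in 3.16% of all windows, and a CArG box, the site of serum response factor, was in 1 and in 1.64%. The E-box CAGCTG, bound by the MyoD family, was in 6 windows of 4 members and in 16.4% of all windows, and TATAAA was in 2 and in 13.6%. The distant Myl2 windows hold 2 of these E-boxes and 1 of these TATAAA matches, and the Tnni1 windows, 90 bases apart, share 1 E-box that is counted in both. A full glucocorticoid response element, AGAACANNNTGTTC, was in none of the member windows and in 0.0461% of all windows. These are letter matches, no binding was measured, and the letters overlap with those of other sites, as TATAAA does with some MEF2 sites. The 250 bases before the start are printed for the 4 members with an MCAT, MEF2, or CArG match, and these matches are in capitals. They lie at base -201 in Myh7, at -177 and -149 (MCAT) and -85 (CArG) in Myl3, at -58 in Tnnc1, and at -33 (MEF2) in Myoz2, counted from the RefSeq start to the first base of the match.
Myh7 (chr14:54994627-54994876, minus strand): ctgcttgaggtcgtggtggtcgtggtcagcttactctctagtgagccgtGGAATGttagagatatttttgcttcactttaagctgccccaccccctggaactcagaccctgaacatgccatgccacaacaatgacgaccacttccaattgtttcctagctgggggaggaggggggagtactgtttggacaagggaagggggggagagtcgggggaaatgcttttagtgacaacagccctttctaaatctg
Myl3 (chr9:110763428-110763677, plus strand): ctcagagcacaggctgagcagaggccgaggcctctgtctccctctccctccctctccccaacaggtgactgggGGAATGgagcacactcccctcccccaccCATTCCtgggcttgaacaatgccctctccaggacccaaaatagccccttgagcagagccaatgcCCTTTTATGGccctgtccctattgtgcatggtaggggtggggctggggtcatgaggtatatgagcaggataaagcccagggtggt
Tnnc1 (chr14:31208062-31208311, plus strand): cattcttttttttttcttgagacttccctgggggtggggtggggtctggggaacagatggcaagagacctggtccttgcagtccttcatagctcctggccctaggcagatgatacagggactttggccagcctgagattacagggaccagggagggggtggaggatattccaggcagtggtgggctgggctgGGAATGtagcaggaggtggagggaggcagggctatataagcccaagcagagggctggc
Myoz2 (chr3:123034988-123035237, minus strand): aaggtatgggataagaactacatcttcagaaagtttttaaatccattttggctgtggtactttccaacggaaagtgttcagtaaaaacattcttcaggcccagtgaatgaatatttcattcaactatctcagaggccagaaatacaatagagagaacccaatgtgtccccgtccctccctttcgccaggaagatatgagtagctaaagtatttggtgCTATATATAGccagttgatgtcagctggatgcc

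The libraries held from 19897754 to 20959781 expected counts. Levels are given as CPM, counts scaled to an equal total in each library, over the 14206 genes, always in the order lean GRf/f, lean GRmKO, ob/ob GRf/f, and ob/ob GRmKO, and fold changes are log2 ratios of CPM with 95% Wilson intervals that cover counting error only. A count of 3 was worth from 0.143 to 0.151 CPM. Nr3c1 was at 125, 67.1, 102, and 39.2 CPM, so it was lower in both libraries labelled GRmKO than in the GRf/f library of the same background. The deleted exon was not measured apart from the rest of the transcript.

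All 10 members were higher in ob/ob muscle than in lean muscle of the same GR genotype, and for all 10 both ob/ob libraries were above both lean libraries. In GRf/f mice, 6 members were at least 2-fold higher, Myh7, Myh7b, Tnnt1, Tnni1, Tnnc1, and Tpm3, where 3.39% of all genes tested were. In GRmKO mice, 7 were, the same 6 and Atp2a2, against 3.41% of all genes tested. No member was 2-fold lower, where 6.99% and 10.8% of all genes tested were. The median log2 fold change of the members was 1.37 in GRf/f and 1.37 in GRmKO mice, beside medians over all genes of -0.11 and -0.21. Of all genes, 37.9% and 32.8% were higher in the ob/ob library. In bulk muscle, more slow fibres, more slow RNA per fibre, and more of the deep, red region in a pool cannot be told apart.

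**Figure D1:**
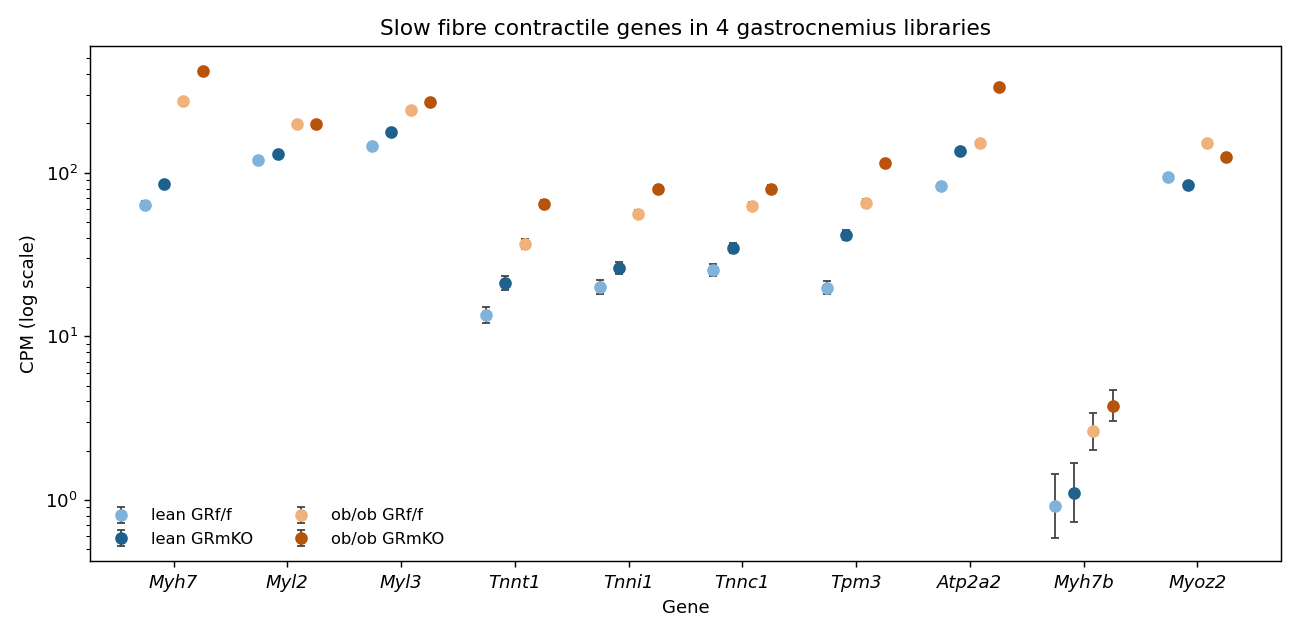
Level of each slow fibre gene in the 4 libraries, in CPM on a log axis. Each point is 1 library of pooled RNA, and bars are 95% Wilson intervals for counting error. For all 10 genes both ob/ob libraries (orange) are above both lean libraries (blue), and the ob/ob GRmKO library is the highest for 8 of them.

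Myh7 encodes the slow myosin heavy chain, the motor that defines type I fibres. Its level was 63.1, 84.8, 276, and 419 CPM in the 4 libraries. The ob/ob libraries stood far above the lean libraries, the largest difference of the set. On the log2 scale it was 2.13 (95% interval 2.04 to 2.21) in GRf/f and 2.30 (2.23 to 2.38) in GRmKO mice. Of all genes tested, 0.570% in GRf/f and 0.436% in GRmKO mice were at least as high on this scale. Myh7 was also somewhat higher in GRmKO than in GRf/f mice, by a log2 of 0.43 (0.32 to 0.53) in lean and 0.60 (0.55 to 0.65) in ob/ob mice, so the libraries were in the order lean GRf/f, lean GRmKO, ob/ob GRf/f, and ob/ob GRmKO.

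Myh7b encodes a relative of the slow myosin that is made in the heart and in fibres of eye muscles and spindles, and whose transcript carries miR-499. It was the least abundant member, with 19.1, 22.0, 55.0, and 78.8 counts, or 0.920, 1.11, 2.63, and 3.76 CPM. The ob/ob libraries were higher by a log2 of 1.51 (0.77 to 2.26) in GRf/f and 1.76 (1.09 to 2.45) in GRmKO mice. The difference between the lean libraries, 0.27 (-0.60 to 1.14), was not detectable at this depth.

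The listed Myh7 transcript shared 32.2% of its 31-base words with Myh6, the fast myosin of the heart, which lies next to it at chr14:54941921-54966927. Reads from such stretches are divided between the genes by the estimate of the authors' quantification. Myh6 was at 11.5, 11.2, 46.9, and 54.1 counts, between 0.617% and 0.877% of the Myh7 counts of the same library.

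The light chains bind the lever arm of myosin, and both slow forms are also the light chains of the heart ventricle. Myl2, the regulatory light chain (chr5:122100951-122113472), was at 119, 130, 199, and 197 CPM. Myl3, the essential light chain (chr9:110741861-110769798), was at 145, 178, 241, and 271 CPM. Both were higher in both ob/ob libraries, but less so than Myh7. For Myl2, the log2 fold change was 0.74 (0.67 to 0.81) in GRf/f and 0.60 (0.53 to 0.67) in GRmKO mice. For Myl3 it was 0.73 (0.67 to 0.80) and 0.61 (0.55 to 0.67). In CPM neither light chain reached 2-fold in either genotype. Relative to genes of like transcript length, as described further on, both did, with 1.26 and 1.15 for Myl2 and 1.11 and 1.03 for Myl3.

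The heavy and light chains thus differed in unequal proportion. Per kilobase of transcript, Myh7 was at 0.0572, 0.0704, 0.150, and 0.229 of the level of Myl2. This ratio depends on no scaling between libraries, and it was higher in both ob/ob libraries than in both lean libraries, by a log2 of 1.39 in GRf/f and 1.70 in GRmKO mice. The transcripts differ much in length, and with each gene taken relative to genes of like length the values were 0.84 and 1.20. The ratio of Myl2 to Myl3 per kilobase stayed between 1.03 and 1.17 in the 4 libraries.

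The 3 slow troponin subunits were higher in ob/ob muscle by similar amounts. Tnnt1, slow troponin T, which binds tropomyosin (chr7:4504570-4516382), was at 13.5, 21.2, 36.7, and 64.2 CPM. Tnni1, slow troponin I, the inhibitory subunit (chr1:135779434-135810989), was at 20.02, 26.1, 56.0, and 79.1 CPM. Tnnc1, the calcium sensor of slow fibres and heart (chr14:31208312-31211729), was at 25.5, 34.7, 62.3, and 79.7 CPM. For each subunit, the lean GRf/f library was the lowest and the ob/ob GRmKO library the highest. In GRf/f mice the log2 fold changes between ob/ob and lean libraries were 1.45 (1.25 to 1.65) for Tnnt1, 1.48 (1.32 to 1.64) for Tnni1, and 1.29 (1.15 to 1.44) for Tnnc1, intervals that overlap. In GRmKO mice they were 1.60 (1.44 to 1.76), 1.60 (1.46 to 1.74), and 1.20 (1.07 to 1.33), where Tnnc1 was below the other subunits. The listed Tnnt1 transcript had no 31-base word of its own, all of them being shared with other Tnnt1 transcripts.

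Tpm3 encodes the slow tropomyosin, the rod that covers the myosin sites on actin, and also cytoskeletal forms made in other cells (chr3:90072649-90100902). Its listed transcript codes for 284 codons, beside 247 or 248 codons in 3 other transcripts of the gene. Tpm3 was at 19.8, 41.5, 65.1, and 114 CPM, the lowest in lean GRf/f and the highest in ob/ob GRmKO muscle. The difference between ob/ob and lean libraries was 1.71 (1.55 to 1.87) on the log2 scale in GRf/f and 1.46 (1.34 to 1.57) in GRmKO mice. It was the only member at least 2-fold higher in lean GRmKO than in lean GRf/f muscle, by a log2 of 1.06 (0.89 to 1.23). The Tpm3 transcript shared 36.1% of its 31-base words with the related sequence Tpm3-rs7, which held 7.13 counts in the lean GRf/f library and was listed at 0 in the other libraries.

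Atp2a2 encodes SERCA2, the calcium pump of slow fibres and heart (chr5:122453513-122502225). The listed transcript has 998 codons, the shorter of 2 protein-coding forms, beside 1044 codons in the other. It was at 82.7, 135, 152, and 332 CPM, and the ob/ob GRmKO library stood above the other libraries. Between ob/ob and lean libraries the log2 fold change was 0.88 (0.79 to 0.96) in GRf/f and 1.29 (1.23 to 1.36) in GRmKO mice. The gap of 0.41 between them was the widest of the set and could not be tested. Atp2a2 was the only member at least 2-fold higher in GRmKO than in GRf/f muscle of ob/ob mice, by 1.12 (1.06 to 1.19).

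Myoz2 encodes calsarcin-1, a Z-disc protein of slow fibres that binds calcineurin and holds it back (chr3:123006206-123035015). It was at 93.6, 83.5, 152, and 125 CPM. Its log2 fold change between ob/ob and lean mice was 0.70 (0.62 to 0.78) in GRf/f and 0.59 (0.50 to 0.67) in GRmKO mice, with intervals that overlap those of Myl2 and Myl3. In contrast to the other members, it was lower in GRmKO than in GRf/f libraries of both backgrounds, by a log2 of -0.17 (-0.26 to -0.07) in lean and -0.28 (-0.36 to -0.21) in ob/ob mice.

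**Figure D2:**
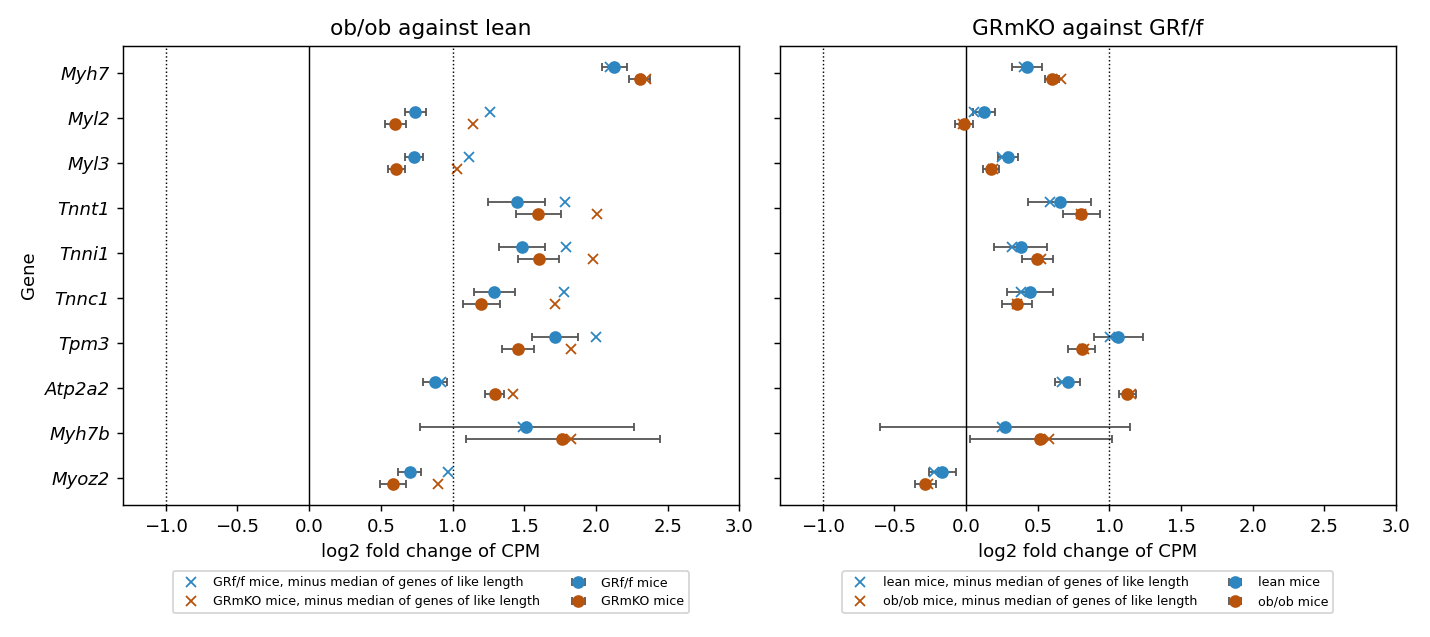
log2 fold change of CPM for each gene, between ob/ob and lean libraries within each GR genotype (left) and between GRmKO and GRf/f libraries within each background (right). Circles carry 95% intervals for counting error, crosses are the same change minus the median of the 500 genes nearest in transcript length, and dotted lines mark 2-fold. All obesity values are above 0, with Myh7 the highest at 2.13 and 2.30, and the genotype values run from -0.28 for Myoz2 to 1.12 for Atp2a2.

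The second axis of the design, GRmKO against GRf/f, gave smaller median differences over the members. For Atp2a2, however, the genotype value in ob/ob mice, 1.12, was above the obesity value in GRf/f mice, 0.88. In lean mice, 9 of 10 members and 57.3% of all genes were higher in the GRmKO library, and 1 member, Tpm3, by at least 2-fold, where 4.13% of all genes tested were 2-fold higher and 3.56% 2-fold lower. In ob/ob mice, 8 of 10 members and 44.1% of all genes were higher, and 1 member, Atp2a2, by at least 2-fold, where 4.03% of all genes tested were 2-fold higher and 5.00% 2-fold lower. The members' median was 0.40 in lean and 0.51 in ob/ob mice, beside 0.05 and -0.04 over all genes. Myl2 differed by 0.13 (0.05 to 0.21) in lean and -0.01 (-0.08 to 0.05) in ob/ob mice, and the sign of the latter turned under other scalings of the libraries, with 0.03 under TMM. The 4 comparisons share libraries, so each member's values are set side by side and no relation between the comparisons was computed. The change with obesity in GRmKO minus that in GRf/f mice ran from -0.26 for Tpm3 to 0.41 for Atp2a2, and it was above 0 for Myh7, Tnnt1, Tnni1, Atp2a2, and Myh7b and below 0 for the other 5.

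Together, the members took 583, 736, 1243, and 1685 CPM, that is from 0.0583% to 0.168% of the counts. Their order per kilobase of transcript was led in every library by Myl2 (180, 196, 301, and 298 CPM per kb) and Myl3 (155, 190, 257, and 290 CPM per kb). The counting intervals of these genes overlapped in both GRmKO libraries. Myoz2 and Tnnc1 followed, and Tpm3, Atp2a2, Tnni1, Myh7, and Tnnt1 lay below them with several neighbours whose intervals overlapped. Myh7 stood at position 9 of 10 in the lean libraries, and at 7 and 8 in the ob/ob libraries, and Myh7b was last in all 4, at 0.149 to 0.611 CPM per kb.

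To relate the slow genes to the fast fibres that make up most of the muscle, each of 9 members was set against its fast counterpart within the same library. The slow share of a pair, per length, does not depend on the scaling between libraries. It was higher in both ob/ob libraries than in the lean library of the same genotype in 9 of 9 pairs. The ratio of slow to fast was at least 2-fold higher in ob/ob muscle in 7 pairs in GRf/f and in 6 pairs in GRmKO mice, with median log2 changes of 1.54 and 1.36. The largest change in GRf/f mice was that of Tpm3 to Tpm1, 1.85, and in GRmKO mice that of Tnni1 to Tnni2, 1.76. The smallest were Atp2a2 to Atp2a1 in GRf/f mice (0.51) and Myl2 to Mylpf in GRmKO mice (0.73).

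The slow isoforms remained a small part of each pair. Myh7 made up 0.248%, 0.373%, 0.838%, and 0.990% of the adult sarcomeric heavy chain transcripts (Myh7, Myh2, Myh1, and Myh4, per length). Myh4, the heavy chain of type IIb fibres, made up 93.5%, 93.7%, 90.0%, and 91.4%, and Myh2, that of type IIa fibres, 2.63%, 2.26%, 4.31%, and 4.11%. Of the 31-base words of the listed transcripts, 30.4% for Myh4, 38.5% for Myh2, and 39.7% for Myh1 also occur in other genes. The levels of these genes thus rest in part on how the authors' quantification divided shared reads. Tnni1 was 0.219%, 0.312%, 0.689%, and 1.05% of both troponin I genes. Myoz2 was the largest slow part, at 4.55%, 5.03%, 8.18%, and 8.63% of Myoz2 and Myoz1. The listed transcript of Myl1, the counterpart of Myl3, is a 150-codon form beside one of 188 codons, so that pair may cover only part of the fast light chain.

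Between GR genotypes, the slow share was higher in GRmKO than in GRf/f mice in 9 of 9 pairs in lean muscle, with a median log2 change of 0.52 in the ratio. In ob/ob muscle it was higher in 8 of 9, with a median of 0.24, and the exception was Myl2 to Mylpf, -0.27. Myoz2, lower in both GRmKO libraries as a level, was higher relative to Myoz1, by 0.15 in lean and 0.08 in ob/ob mice, since Myoz1 was lower too, by a log2 of -0.32 and -0.37.

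**Figure D3:**
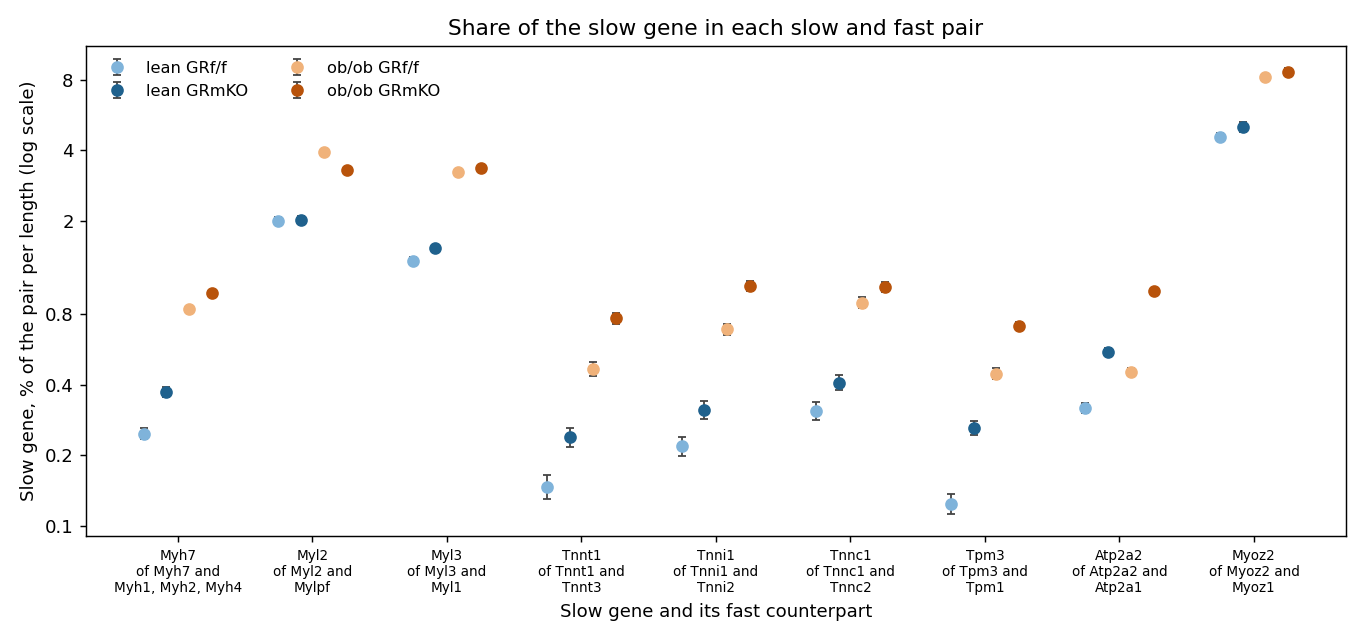
Share of the slow gene in each slow and fast pair, per length of the listed transcripts, in percent on a log axis. Points are the 4 libraries, and bars are 95% Wilson intervals for counting error. The slow share is higher in each ob/ob library than in the lean library of the same genotype in all 9 pairs, and Tpm3 runs from 0.124% in lean GRf/f to 0.712% in ob/ob GRmKO muscle.

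One property of the libraries moved with the obesity comparisons. The median log2 fold change between ob/ob and lean muscle went from -0.54 in GRf/f and -0.59 in GRmKO mice for the 543 genes with transcripts of up to 800 bases to 0.04 and -0.05 for the 1704 genes above 6000 bases. The genotype comparisons showed no such range, with class medians from 0.01 to 0.07 in lean and from -0.06 to 0.01 in ob/ob mice. The members run from 662 bases (Myl2) to 6163 bases (Myh7b). Relative to the median of the 500 genes nearest in length, a measure added after the data had been seen, all 10 were still higher in both obesity comparisons. The median was then 1.63 in GRf/f and 1.77 in GRmKO mice, and 8 and 9 members were past 2-fold. The share of all genes past 2-fold on this measure was not computed, and the shares given above are for CPM. Myl2 moved the most, from 0.74 to 1.26 in GRf/f and from 0.60 to 1.15 in GRmKO mice, and Myh7 hardly moved, at 2.10 and 2.35. The range over the members narrowed from 1.43 to 1.18 in GRf/f and from 1.72 to 1.45 in GRmKO mice.

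**Figure D4:**
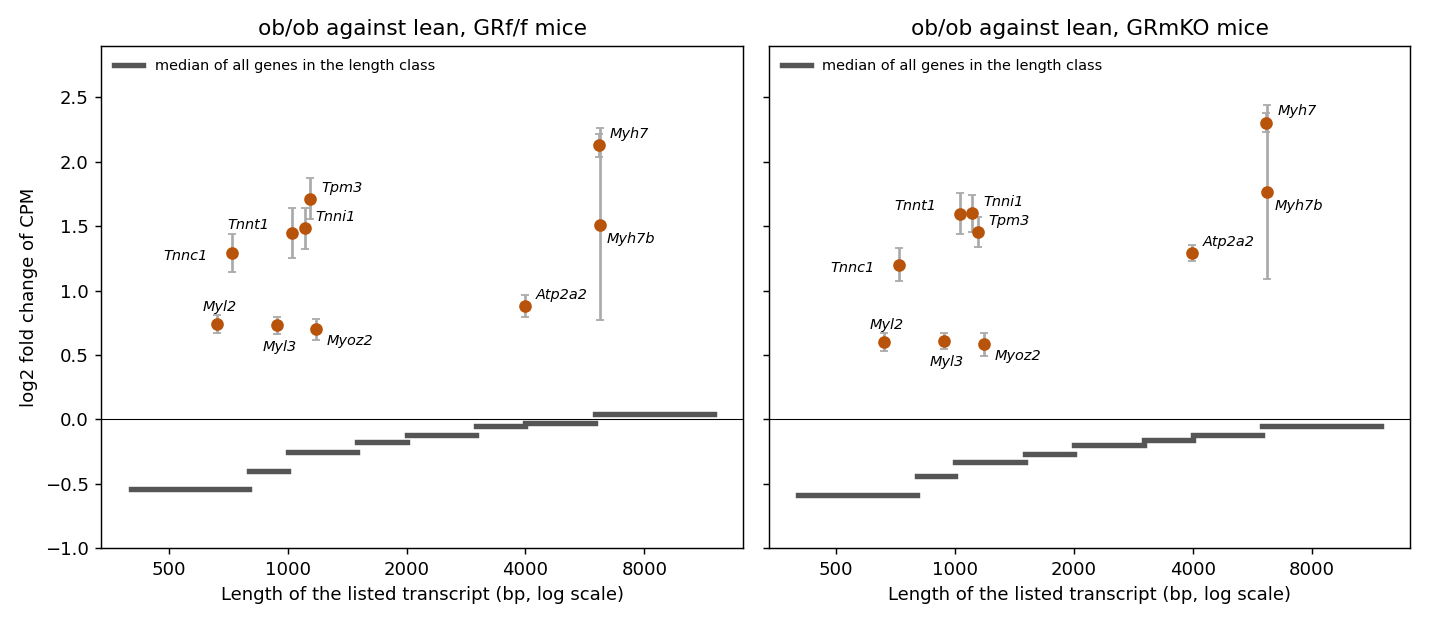
log2 fold change of CPM between ob/ob and lean libraries against the length of the listed transcript in base pairs on a log axis, in GRf/f (left) and GRmKO mice (right). Orange points are the slow fibre genes with 95% intervals for counting error, and grey lines are the medians of all genes in 8 length classes. The grey medians go from -0.54 and -0.59 in the shortest class to 0.04 and -0.05 in the longest, and all 10 genes lie above them.

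Other slow-enriched genes, a list of 14 that holds calcium-handling, Z-disc, and metabolic proteins, were also mostly higher in ob/ob muscle. In GRf/f mice, 12 of 14 were higher, 5 of them at least 2-fold, with a median log2 of 0.88. In GRmKO mice, 13 were higher, 4 at least 2-fold, and 1, Pln, was at least 2-fold lower, with a median of 0.49. Among all genes tested, 37.9% in GRf/f and 32.8% in GRmKO mice were higher, and 3.39% and 3.41% at least 2-fold higher. In GRmKO mice 10.8% of all genes tested were at least 2-fold lower. Under TMM scaling 14 were higher in GRf/f mice, 7 of them at least 2-fold, and 13 in GRmKO mice, 5 of them at least 2-fold, with none 2-fold lower and medians of 0.99 and 0.70. The medians over all genes were then -0.008 and -0.002, and 635 and 738 of the 14206 genes were at least 2-fold higher. Pln, phospholamban, an inhibitor of SERCA2 that is named here after its values were seen, was at 26.7, 88.0, 48.6, and 43.3 counts, a log2 of 0.85 (0.17 to 1.52) in GRf/f and -1.10 (-1.63 to -0.58) in GRmKO mice, the latter -0.89 under TMM. The genes past 2-fold in both were Myom3, Casq2, and Actn2.

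Myom3, a protein of the M-band, was at 26.5, 25.4, 70.7, and 80.5 CPM, a log2 fold change of 1.41 (1.27 to 1.55) in GRf/f and 1.66 (1.52 to 1.81) in GRmKO mice. Casq2, which binds calcium in the reticulum of slow fibres and heart, was at 31.05, 41.9, 66.0, and 92.3 CPM (1.09 and 1.14). Actn2, the Z-disc crosslinker alpha-actinin-2, was at 641, 768, 1303, and 1691 CPM (1.02 and 1.14). For these genes too, both ob/ob libraries were above both lean libraries.

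Others on the list followed different patterns. Csrp3, the muscle LIM protein of the Z-disc, was at 47.6, 48.1, 126, and 66.4 CPM, the highest in the ob/ob GRf/f library. Sln, sarcolipin, an inhibitor of SERCA pumps, was at 14.0, 53.0, 24.0, and 165 counts, higher in both GRmKO libraries, by a log2 of 1.98 (1.14 to 2.82) in lean and 2.78 (2.17 to 3.40) in ob/ob mice. The most abundant genes, Car3, the carbonic anhydrase of slow fibres, and Tpm2, beta-tropomyosin, were at 3497, 4339, 3333, and 5708 CPM and at 3094, 3740, 3722, and 5209 CPM.

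The direction of the fast contractile genes depended on the scaling and on transcript length. Of 16 fast genes, 8 were higher in ob/ob than in lean GRf/f muscle and 9 in GRmKO muscle, with medians of 0.00 and 0.11, and 8 and 13 were higher under TMM scaling, with medians of 0.11 and 0.31. In CPM, 37.9% and 32.8% of all genes were higher. Relative to genes of like transcript length, 14 and 15 of 16 were higher, with medians of 0.27 and 0.40. In GRmKO mice 4 of the fast genes were past 2-fold under TMM scaling and 1 in CPM. Among all 14206 genes, 738 were at least 2-fold higher under TMM and 3.41% in CPM. Of the fast genes, only Myh2 was past 2-fold in both genotypes, at 664, 509, 1405, and 1724 CPM, a log2 of 1.08 (1.05 to 1.11) and 1.76 (1.73 to 1.79). Myh1, the type IIx heavy chain, was at 907, 827, 1574, and 1486 CPM (0.79 and 0.84), and Myh4 at 23367, 20902, 29046, and 37921 CPM (0.31 and 0.86). Atp2a1, the fast pump SERCA1, was at 22623, 21300, 29117, and 28619 CPM (0.36 and 0.43). The 4 heavy chain genes thus were all higher in ob/ob muscle, in the order Myh7, Myh2, Myh1, and Myh4 in GRf/f mice.

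Regulators of the slow programme were mostly higher in ob/ob muscle, few of them by 2-fold. This list of 28 genes holds calcineurin subunits and their NFAT and MEF2 targets, PGC-1 and its nuclear receptor partners, TEAD factors, and repressors of slow genes. None reached 2-fold in GRf/f mice and 1, Nfatc2, in GRmKO mice (1 and 2 under TMM scaling), and 23 and 22 of 28 were higher in ob/ob muscle, with medians of 0.18 and 0.32. Among all genes tested, 37.9% and 32.8% were higher in CPM, and 3.39% and 3.41% at least 2-fold higher. Under TMM scaling 25 and 27 were higher, with medians of 0.28 and 0.52. Nfatc2, a calcineurin-dependent transcription factor, was at 9.26, 5.02, 15.7, and 13.8 CPM (0.76 and 1.46), the lowest in lean GRmKO muscle. Mef2c and Mef2d, the most abundant of the list, were at 238, 233, 331, and 389 CPM (0.47 and 0.74) and at 180, 199, 242, and 270 CPM (0.43 and 0.44).

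Eya1, a transcriptional cofactor of the fast programme, was at 7.43, 8.98, 14.3, and 8.08 CPM (0.95 and -0.15), the highest in ob/ob GRf/f muscle. Tead4, a TEAD factor, was at 2.62, 2.25, 4.13, and 4.40 CPM. Its log2 fold change was 0.66 (0.17 to 1.15) in GRf/f and 0.97 (0.45 to 1.47) in GRmKO mice. Tead1, a more abundant TEAD factor that is named after its values were seen, was at 135, 129, 196, and 202 CPM (0.54 and 0.65).

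The genes with the most similar pattern over the 4 libraries were found by the root mean square distance of centred log2 CPM from the median profile of the members, among 11132 other genes with a mean of at least 50 counts. The nearest was Myh8, the perinatal myosin heavy chain, at a distance of 0.12, with 1.75, 2.71, 5.56, and 7.63 CPM. Ncam1, a cell adhesion molecule found at the neuromuscular junction and on regenerating fibres, and Elovl6, a fatty acid elongase, followed at 0.13 and 0.14. Arhgap44, Casq2, Zfp641, Arid3b, Gramd1b, Cilp, and Lrtm1 completed the 10 nearest, up to a distance of 0.19. Casq2, Cilp, and Lrtm1 alone among these had a mean of at least 500 counts, so the list above that mean necessarily begins with them. The distances of the members themselves ran from 0.10 for Tnnt1 to 0.55 for Myoz2, so with only 4 libraries a close pattern is a description of these pools.

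Markers of other cells were examined because heart and slow fibre share several genes. Of 8 heart markers, Nppb, Mybpc3, and Myl7 were at 0 in all 4 libraries, and Nppa held at most 3.01 counts. The summed level was 1.99, 2.82, 3.74, and 5.76 CPM. Tnnt2 was at 0.956, 1.80, 1.20, and 2.44 CPM, and Myh6 at 0.553, 0.565, 2.24, and 2.58 CPM. Tnni3 and Ryr2, the least abundant of the tested heart markers, had opposite signs in the obesity comparisons, within counting error. For Tnni3 the log2 was 0.73 (-1.198 to 2.64) in GRf/f and -0.65 (-4.007 to 1.86) in GRmKO mice. For Ryr2 it was -2.14 (-5.03 to 0.35) and 1.04 (-0.399 to 2.52). Of 2 markers of developing fibres, Myh8 was past 2-fold in both obesity comparisons, and Myh3, the embryonic heavy chain, was at 22.1, 77.2, 142, and 0 counts. Skeletal fibre markers were abundant, at 112344, 108913, 114882, and 125603 CPM summed over 7 genes, none of them past 2-fold in CPM, although Myh4 was at 1.06 in ob/ob against lean GRmKO muscle under TMM.

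Some cell markers moved with the obesity comparison. In CPM, all 6 erythroid markers were at least 2-fold lower in ob/ob muscle in both genotypes, from 2234 and 2131 CPM summed in the lean to 972 and 873 CPM in the ob/ob libraries, and all 6 adipocyte markers were lower, at 984, 640, 504, and 313 CPM summed. Among all genes tested, 37.9% in GRf/f and 32.8% in GRmKO mice were higher in ob/ob muscle, and 6.99% and 10.8% at least 2-fold lower. Only 2 adipocyte markers were 2-fold lower in each genotype, and 1 of these, Cfd, was at 268, 145, 14.4, and 8.92 CPM. Relative to genes of like length, all 6 erythroid markers were still lower, but only 2 in GRf/f and 1 in GRmKO mice by 2-fold. Of the adipocyte markers, Adipoq differed by -0.02 (-0.12 to 0.08) and -0.12 (-0.25 to 0.01), within counting error, and its sign turned under TMM (0.09 and 0.08). All 6 tendon markers were higher in ob/ob GRf/f muscle and 5 of 6 in ob/ob GRmKO muscle, with 927, 774, 1784, and 980 CPM summed. The 4 macrophage markers and the 5 endothelial markers were all lower in CPM in both ob/ob libraries, with medians of -0.42 and -1.48 and of -0.35 and -0.71. Cd68, a macrophage marker, differed in GRf/f mice by -0.15 (-0.38 to 0.09), within counting error, and by 0.09 relative to genes of like length. Cell markers also moved with genotype. All 6 adipocyte and all 6 tendon markers were lower in CPM in GRmKO than in GRf/f muscle in both backgrounds. The medians, lean mice first, were -0.80 and -0.75 for the adipocyte markers and -0.28 and -1.09 for the tendon markers, of which 4 were 2-fold lower in ob/ob mice. Among all genes tested, 57.3% in lean and 44.1% in ob/ob mice were higher in GRmKO muscle, and 5.00% were 2-fold lower in ob/ob mice. Scx, a tendon marker, differed in lean mice by -0.002 (-0.28 to 0.28), within counting error. The 4 macrophage and 5 endothelial markers were higher in lean GRmKO muscle (medians 0.39 and 0.24) and lower in ob/ob GRmKO muscle (-0.54 and -0.14), some within counting error. Smooth muscle markers were at 324, 305, 286, and 256 CPM, Schwann cell markers at 475, 597, 657, and 563 CPM, and satellite cell markers at 8.29, 13.0, 14.5, and 12.0 CPM, summed over 4, 4, and 2 genes. The part of these other cells in the differences of the slow genes was not tested.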

How the data were processed

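Gastrocnemius RNA of 3 mice per group was pooled and sequenced by the authors as 100-bp paired-end reads on a DNBSEQ-G400, 1 library for each of 4 groups, grouped here by the sample labels. The authors quantified protein-coding GENCODE M20 transcripts (mm10, that is GRCm38) by Salmon v1.2.1, followed by tximport as length-scaled TPM in R v3.5.0 (versions as in the submitters' processing notes). The deposited values are expected counts, 1 per gene name, not normalized between libraries. Of duplicated names the authors kept the entry with the largest total. Each name carries 1 Ensembl transcript, and whether a value covers other transcripts of its gene could not be settled. Lengths are those of that listed transcript.

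Counts of the 14206 genes above 0 in all 4 libraries were scaled to CPM. With 1 library per group no test was run. A gene counted as changed at 2-fold, and Wilson intervals on rounded counts cover counting error only, with PCR copies not told apart. Compared were ob/ob with lean mice within each genotype and GRmKO with GRf/f mice within each background. Shares of slow and fast pairs were computed on counts divided by length. The simulated replicates of the authors' method for calls were not used. The fold computation was tested on simulated data. Members and gene lists were chosen with earlier results of these data known. Besides the members, each list names its genes past 2-fold in the same direction in both obesity comparisons, its 2 most abundant genes, and the 2 with the largest change in each obesity comparison. Myh3, Nppa, Nppb, Mybpc3, Myl7, Myh6, Tnnt2, Tnni3, and Ryr2 are named as markers, and so are, after their values were seen, Adipoq, Cfd, Cd68, and Scx. For likeness the 10 nearest genes are named.

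Alternatives were edgeR 4.0.16 TMM factors and DESeq2 1.42.0 size factors on rounded counts (R 4.3.3), upper quartile scaling, library sizes without the 50 most abundant genes or over all genes, at least 10 counts in every library, no filter with 0.5 added, 1.5-fold and 3-fold, other lengths for the shares, and a mean of 500 counts for likeness. Coordinates and codons are from GENCODE M21 on GRCm38, and promoter and microRNA sequences from RefSeq on GRCm38.p6. Python 3.11.15, numpy 2.4.6, pandas 2.3.3, and matplotlib 3.10.9 were used. The corticosterone and cell culture models of the study were not analysed here.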

Additional observations from a re-analysis of the deposited data

Results flagged for a closer look

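Some genes of the lists had opposite directions in CPM in both groups under the same contrast, with counting intervals that exclude 0 on either side. Of the 58 genes of the 3 lists, 4 were such genes between obesity comparisons and 7 between genotype comparisons. Values are given for those named in the text, and for Pln and Nfatc1, which were chosen after their values were seen. None of these differences could be tested with 1 library per group. Car3 was near level between ob/ob and lean GRf/f muscle (log2 -0.07) and higher in ob/ob GRmKO than in lean GRmKO muscle (0.40), a difference of 0.46. The first of these values was 0.04 under TMM, 0.05 under DESeq2 size factors, and 0.01 under upper quartile scaling, where both directions are then the same. Myh2 was lower in lean GRmKO than in lean GRf/f muscle (-0.38) but higher in ob/ob GRmKO than in ob/ob GRf/f muscle (0.30), a difference of 0.68. Myh4 went the same way, with -0.16 in lean and 0.38 in ob/ob mice, a difference of 0.55. Both heavy chains kept these directions under TMM, DESeq2, and upper quartile scaling. Tpm1, the counterpart of Tpm3, differed between GR genotypes by -0.013 (-0.020 to -0.006) in lean and 0.131 (0.124 to 0.138) in ob/ob mice. Pln was higher in ob/ob GRf/f (0.85) and lower in ob/ob GRmKO muscle (-1.10) than in the lean library, a difference of -1.94 that rests on 26.7 to 88.0 counts, and it kept these directions under the same scalings. Nfatc1 was higher in lean GRmKO than in lean GRf/f muscle (0.51) and lower in ob/ob GRmKO than in ob/ob GRf/f muscle (-0.18), a difference of -0.69. In contrast, Myh7 was higher in the GRmKO library of both backgrounds, by 0.43 and 0.60.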

How the results depend on the processing

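No paired analysis was possible because each group has 1 library, and for the same reason no replicate could be left out. Under 8 alternatives that recompute values, no member changed sign in the obesity comparisons or in lean genotypes (80 values each), and 4 of 80 values did in ob/ob genotypes, all of Myl2. The members' median ran from 1.37 to 1.63 in ob/ob against lean GRf/f, from 1.37 to 1.77 in GRmKO, from 0.35 to 0.40 between lean and from 0.51 to 0.56 between ob/ob genotypes. The highest values, 1.63 and 1.77, were relative to genes of like length, and in GRmKO the median was 1.58 under TMM, 1.59 under DESeq2 size factors, and 1.52 under upper quartile scaling, which move the median of all genes from -0.21 to 0.00, 0.01, and -0.07. At 1.5-fold, 10 members were higher in ob/ob GRf/f, and 3 and 4 in GRmKO of lean and ob/ob mice. At 3-fold, 2 and 4 were higher in ob/ob GRf/f and GRmKO, and 0 and 0 in the genotype comparisons. The counts of all genes 2-fold higher and lower were 482 and 993 in ob/ob GRf/f, 484 and 1539 in ob/ob GRmKO, 586 and 506 between lean, and 573 and 710 between ob/ob genotypes. In the same order, at least 10 counts gave 252 and 449, 220 and 986, 228 and 169, and 230 and 323. No filter with 0.5 added gave 1307 and 3077, 1520 and 2746, 1578 and 2449, and 1698 and 1606. At 1.5-fold they were 1130 and 2352, 1107 and 3404, 1341 and 1105, and 1220 and 1737, and at 3-fold 187 and 430, 186 and 516, 203 and 216, and 221 and 259. In ob/ob GRmKO, TMM gave 738 and 999 and DESeq2 751 and 984. The median of the 9 slow shares, 0.309%, 0.409%, 0.838%, and 1.04% in the 4 libraries, was 0.471%, 0.924%, and 1.15% in the last 3 without division by length, and 0.283% in lean GRf/f with the longest transcript.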
